A study of Mus musculus with 23 samples.

Results

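DNA methylation was compared between cultured mouse myoblasts and mouse embryonic stem cells (ESC). The comparison takes 7 of the 23 libraries of the study, or 6 after a technical replicate was summed with its partner. The myoblasts are primary muscle precursor cells of male C57BL/6J mice, grown in serum and bFGF on collagen and kept in proliferation at passage 8 to 10. They gave 3 libraries, replicates 1 to 3, from cultures 21, 27 and 26. The ESC gave 3 lines, namely CGR8 (129Sv, male, 2 libraries of which the second is a technical replicate), RD1 (129X1/SvJ, male) and E14Tg2 (129/Ola, sex not given). The culture conditions of the ESC are not given in the sources used here. Every myoblast is of C57BL/6J background and every ESC line of a 129 background, so strain and cell type cannot be told apart. Methylation of a site and presence of the site in a strain's genome cannot be told apart either. No source says whether the cultures came from separate animals, so p-values measure the spread between these cultures and lines.

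The libraries were made by AIMS-seq, an assay built on the recognition sequence CCCGGG. SmaI first cuts the unmethylated copies of this sequence to blunt ends. XmaI then cuts the methylated copies that remain, and adaptors join only to its cohesive ends, so PCR amplifies the stretch between neighbouring methylated sites. Such a stretch is called a fragment here, and its read count rises with the number of molecules that are methylated at both ends. A count is not a percentage of methylation.

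In mammals, methyl groups sit mostly on cytosines of CpG pairs. Transposable elements, that is, LINE, SINE and LTR elements, are densely methylated in most somatic cells and make up much of the genome, whereas CpG islands at promoters are mostly free of methylation. ESC keep active de novo methyltransferases together with TET enzymes that oxidise methylcytosine, and lineage cells such as myoblasts carry methylation at many genes of the pluripotent state. Methylation at a gene is not its expression, and no cell type can be checked from it directly.

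The set holds the fragments under 2000 bp on chromosomes 1 to 19, which are 49684 of the 173430 fragments of the table. Their lengths run from 6 to 1999 bp with a median of 231 bp. Within the set the myoblast libraries held 10483777, 8937400 and 7184895 reads, and the ESC lines held 21635008 reads in CGR8, 8860832 in RD1 and 7273250 in E14Tg2. A low-count filter at 10 reads left 15488 fragments for testing. Of these, 10970 passed the filter in each group taken alone, 1387 only in myoblasts, 2128 only in ESC and 1003 only in the groups together.

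The first CGR8 library and myoblast replicate 1 stood apart from the others in base composition. Fragments of 60 to 65% GC gave 0.639, 1.58 and 2.02% of the reads in myoblast replicates 1 to 3. They gave 0.591% in CGR8, 1.42% in RD1 and 1.30% in E14Tg2, and within CGR8 0.197% in the first library and 1.18% in the second. Myoblast replicate 1 and the first CGR8 library were thus both poor in GC-rich fragments, in opposite groups. Results that rest on these libraries are given with and without them, an alternative added after the data had been seen. The correlation of log2 levels between libraries, over 15700 fragments that share depth and base composition effects, ran from 0.809 to 0.896 among the myoblasts, and was 0.911 between the CGR8 libraries and 0.955 between the second of them and E14Tg2.

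The 7 fragments printed here were taken from the classes described below. They are an L1Md_A fragment, called a unit here, of a length that was called higher many times over, and an old and a young repeat called lower. The others are a SINE related to B1, a promoter island and a pair of unique sequences. The young repeat called lower, L1Md_T, goes against its class, which had 37 higher and 3 lower calls of 203 tested. The L1Md_A unit was chosen after its values had been seen, and the others by smallest p among called fragments of at most 300 bp. Only called fragments whose groups do not overlap could be chosen. They were read from the mm9 genome, and capitals mark the CCCGGG sites at the ends.
L1Md_A unit, higher (mm9 chr11:40723308-40723469, + strand): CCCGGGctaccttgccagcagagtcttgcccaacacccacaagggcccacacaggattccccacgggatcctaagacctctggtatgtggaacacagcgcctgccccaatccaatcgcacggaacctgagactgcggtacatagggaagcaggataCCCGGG
L1Md_T, lower (mm9 chr17:58856994-58857044, + strand): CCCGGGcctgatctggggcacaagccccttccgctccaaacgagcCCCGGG
PB1D7 SINE, intron of Fam154a, higher (mm9 chr4:86130024-86130301, + strand): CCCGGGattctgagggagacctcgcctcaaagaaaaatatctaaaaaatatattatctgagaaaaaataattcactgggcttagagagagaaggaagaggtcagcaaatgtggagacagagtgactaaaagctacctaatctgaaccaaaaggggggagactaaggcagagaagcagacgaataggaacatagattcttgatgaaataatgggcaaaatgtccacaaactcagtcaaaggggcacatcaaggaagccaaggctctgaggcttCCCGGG
MIR, lower (mm9 chr6:127356241-127356409, + strand): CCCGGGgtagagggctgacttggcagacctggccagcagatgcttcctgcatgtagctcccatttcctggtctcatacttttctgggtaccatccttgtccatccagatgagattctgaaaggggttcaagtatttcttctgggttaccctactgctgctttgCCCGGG
CpG island at the Lgmn promoter, higher (mm9 chr12:103677593-103677828, + strand): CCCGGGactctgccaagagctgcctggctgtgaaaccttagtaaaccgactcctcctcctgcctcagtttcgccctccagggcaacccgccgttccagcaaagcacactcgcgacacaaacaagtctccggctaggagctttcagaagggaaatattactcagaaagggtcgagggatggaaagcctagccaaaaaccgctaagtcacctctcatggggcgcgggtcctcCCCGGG
Single copy, intron of Pmepa1, higher (mm9 chr2:173071485-173071718, + strand): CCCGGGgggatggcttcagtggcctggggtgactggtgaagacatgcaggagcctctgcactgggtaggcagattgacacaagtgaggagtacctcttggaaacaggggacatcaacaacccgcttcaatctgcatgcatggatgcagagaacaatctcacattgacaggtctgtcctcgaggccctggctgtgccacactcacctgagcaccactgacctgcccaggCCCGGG
Single copy, intergenic, lower (mm9 chr14:34896929-34897076, + strand): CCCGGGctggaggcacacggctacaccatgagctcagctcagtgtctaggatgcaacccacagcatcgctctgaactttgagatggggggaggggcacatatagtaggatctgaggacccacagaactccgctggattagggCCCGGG

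The L1Md_A unit had 190, 236 and 84 reads in myoblasts, against 4, 2 and 2 reads in ESC (log2 6.56 ± 0.67, edgeR quasi-likelihood adjusted p = 0.000426). The L1Md_T fragment had 1 read over the myoblasts and 149 over the ESC, lower by a ratio of 105 (exact 95% interval 18.6 to 4170). The Lgmn island had 21, 256 and 116 reads in myoblasts and 1 read over the ESC, higher by a ratio of 558 (interval 99.5 to 22100). Lgmn encodes legumain, a lysosomal protease. These intervals are exact (Clopper-Pearson) and, since PCR reads here carry no molecular identifiers, they cover counting error only. The ratios of summed reads are by library totals with no TMM adjustment, which would make a higher ratio 1.14 times as large and a lower one smaller by that factor. The Pmepa1 intron had 1139, 1065 and 457 reads in myoblasts, against 3, 0 and 0 reads in ESC. Levels are given as CPM, that is, counts scaled to a library of 1000000 reads after the library sizes were adjusted by TMM, a scaling by the bulk of the fragments. The MIR fragment stood at 3.17, 6.73 and 7.44 CPM in myoblasts, against 78.2, 75.1 and 49.3 CPM in ESC. No myoblast culture overlaps any ESC line in these fragments, which was a condition of their choice and is not a result.

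Differences in both directions were common. Of the 15488 fragments tested, 1530 were called higher in myoblasts and 1080 lower at an adjusted p under 0.05 by edgeR's quasi-likelihood test. That is a background of 9.88% higher, 6.97% lower and 16.9% either way, against which the counts of each class are to be read. In 40.3% of the tested fragments the levels of the groups did not overlap. Over all tested fragments the log2 change had a median of 0.15, which was -0.14 when libraries were scaled by their totals and -0.01 after a correction for GC and length, so class medians near 0 have no sign of their own. DESeq2 called 2169 higher (14%) and 1981 lower (12.8%), and the GC and length correction gave 1531 higher (9.89%) and 2055 lower (13.3%), so higher calls made up 58.6% of all calls in the first fit and 42.7% under that correction. With no low-count filter there were 2186 higher (8.01%) and 2336 lower (8.56%) of 27287, so that higher calls made up 48.3%, and they made up 78.5% with all 9 groups of the study in 1 fit. Single libraries weighed on the counts. Without myoblast replicate 1 there were 2523 higher (15.5%) and 2131 lower (13.1%) of 16324, with a median of -0.11 over all, and without myoblast replicate 3 there were 568 lower. Lower calls numbered 560 without CGR8, 596 without RD1 and 447 without E14Tg2. Without the 2 libraries that stood apart there were 2883 higher (17.6%) and 2553 lower (15.6%) of 16344. No fragment was called in opposite directions by any of these fits.

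The levels behind the higher and the lower calls differed in kind. Fragments called higher had a median level of 28.9 CPM in myoblasts and 0.408 CPM in ESC. In 952 of these 1530 fragments (62.2%) the ESC mean was under 1 CPM, so most were close to absent from the ESC libraries. Fragments called lower had a median of 9.69 CPM in myoblasts and 57.2 CPM in ESC, and only 186 of the 1080 (17.2%) had a myoblast mean under 1 CPM. A higher call thus mostly set a present fragment against a near-empty one, and a lower call mostly set a weaker fragment against a stronger one. At most 3 reads over the ESC were found in 259 of the fragments called higher, 49 of them with 0, and at most 3 reads over the myoblasts in 57 of those called lower, 17 of them with 0. Size of change counts in the call, so these levels describe the called fragments and are not a test.

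**Figure D1:**
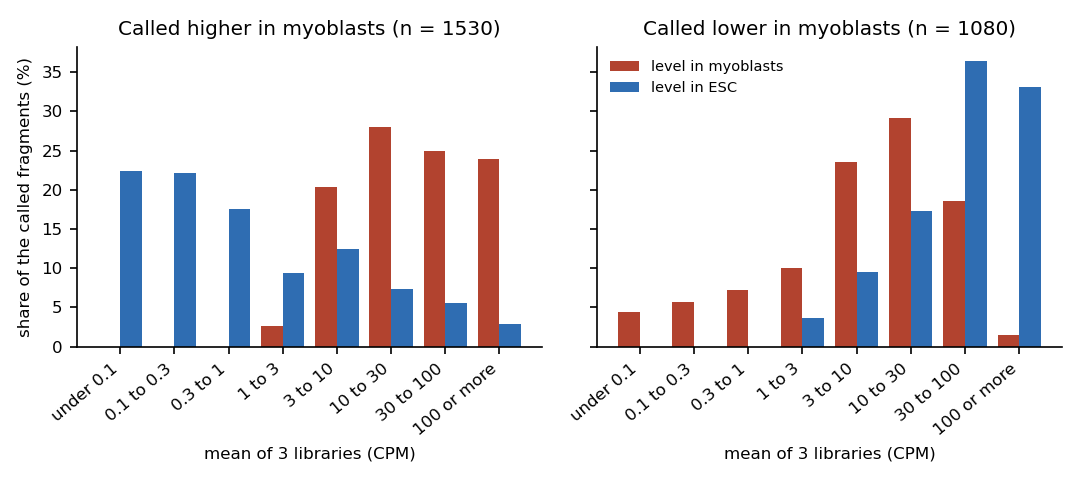
Share of the called fragments (y axis, %) by mean level of 3 libraries (x axis, CPM bins), for fragments called higher in myoblasts (left, n = 1530) and called lower (right, n = 1080), with myoblast levels in red and ESC levels in blue. On the left 22.4% of the fragments have an ESC mean under 0.1 CPM, and on the right 4.35% have a myoblast mean under 0.1 CPM.

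The called fragments also differed in what they were. Of the fragments called higher, 61.2% carried a repeat label and 53.5% lay between genes. Those called lower carried such a label in 33.3% and lay between genes in 43.3%, while over all tested fragments the shares were 45.2% and 43.0%. A repeat label does not say that the CCCGGG sites at the ends lie within the element. Tested SINE fragments had a median length of 939 bp and MIR fragments 831 bp. How much of a fragment its element covers is not given here, so repeat classes below are classes of labelled fragments. The median length was 565 bp for higher and 809 bp for lower calls, and the median GC content was 49.6% and 49.5%. CpG pairs numbered 1.68 per 100 bp in the higher and 1.19 in the lower fragments at the median, with 1.42 over all tested.

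LINE elements held the largest surplus of higher over lower calls among LINE, LTR and SINE. LINEs are retrotransposons that copy themselves through RNA, and L1 is the family still active in mice. Of 2499 tested LINE fragments, 459 were called higher (18.4%) and 101 lower (4.04%), with a median log2 change of 0.47. After the GC and length correction these were 384 and 254 with a median of -0.02, so the median loses its sign under that correction. Without the 2 libraries that stood apart 715 were higher and 227 lower of 2756, and without myoblast replicate 1 alone 693 and 189 of 2742. The share of all reads in LINEs hardly differed, at 7.45, 8.89 and 7.45% in myoblasts, against 7.21, 8.03 and 7.75% in ESC (exact 2-sided permutation p = 0.8). The cultures and the lines overlap in this share.

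Within LINEs most of the surplus lay in L1Md_A, a young mouse L1 subfamily whose promoter is built of tandem monomers. Of 1127 tested L1Md_A fragments, 275 were called higher (24.4%) and 8 lower (0.71%), and the median log2 change was 1.25. The other L1 fragments, 1282 in number, gave 171 higher and 83 lower with a median of -0.03. With the GC and length correction L1Md_A gave 202 higher and 48 lower with a median of 0.38, and without the 2 libraries that stood apart 468 higher and 29 lower of 1308 with a median of 1.16. Leaving out myoblast replicate 1 alone gave 468 and 15 of 1298. The L1Md_A median stayed above 0 in each of these fits. Of the tested L1Md_A fragments 330 passed the low-count filter only through the myoblasts and 92 only through the ESC, and with no filter 369 were higher and 20 lower of 2765 with a median of 1.01.

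Most tested L1Md_A fragments were 156 bp long. Fragments of this length are called units here, which does not mean whole monomers of the promoter. Among the 10867 L1Md_A fragments of the set, 4903 were 156 bp long, 3037 were 52 bp and 266 were 208 bp. Of the 156-bp units, 687 were tested, 193 were called higher and 3 lower, with a median log2 change of 1.49. Their median GC content was 60.9%, within the range that the libraries recovered unequally, and the GC and length correction left 126 higher and 21 lower with a median of 0.52. The 4903 units carried 2206 distinct sequences, the most frequent of them 496 times, so reads of near-identical copies cannot be placed with certainty. How the aligner treated reads with several matches is not given in the sources used here. Units whose full sequence occurs once among the 4903 gave 189 higher and 3 lower of 654 tested with a median of 1.47. Those with identical copies among them gave 4 higher and 0 lower of 33. Other fragments and the rest of the genome were not searched, so reads of either kind may also match elsewhere. Fragments of like length elsewhere had other counts. Those of 101 to 200 bp in L1Md_A gave 227 higher and 3 lower of 879, whereas those outside it gave 108 higher and 40 lower of 1055, with medians of 1.35 and 0.30. At 60.9% and 56.2% their median GC contents differed as well.

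Summed over all its fragments, L1Md_A took 9773, 17149 and 15611 RPM (reads of 1000000 in the set, with no further scaling) in myoblasts, against 6463 in CGR8, 10302 in RD1 and 9030 in E14Tg2. Myoblast replicate 1 lay below RD1, so the groups overlap, and the ratio of means of 1.65 had an exact permutation p of 0.2. The first CGR8 library had 4494 and the second 9381 RPM. With all libraries thinned to 7184895 reads, L1Md_A fragments with at least 5 reads numbered 1102, 1557 and 1497 in myoblasts, against 922, 1170 and 1092 in ESC (exact permutation p = 0.2). Of the other L1 names, L1Md_T had 37 higher and 3 lower of 203, and L1Md_F2 had 36 higher and 15 lower of 283. L1_Mus1 had 15 higher and 19 lower of 166 with a median of -0.59. Its reads made up 5659, 7156 and 4799 RPM in myoblasts, against 7586, 7218 and 7569 in ESC, which is lower in every culture than in every line (ratio 0.787, exact permutation p = 0.1, the lowest value possible here).

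**Figure D2:**
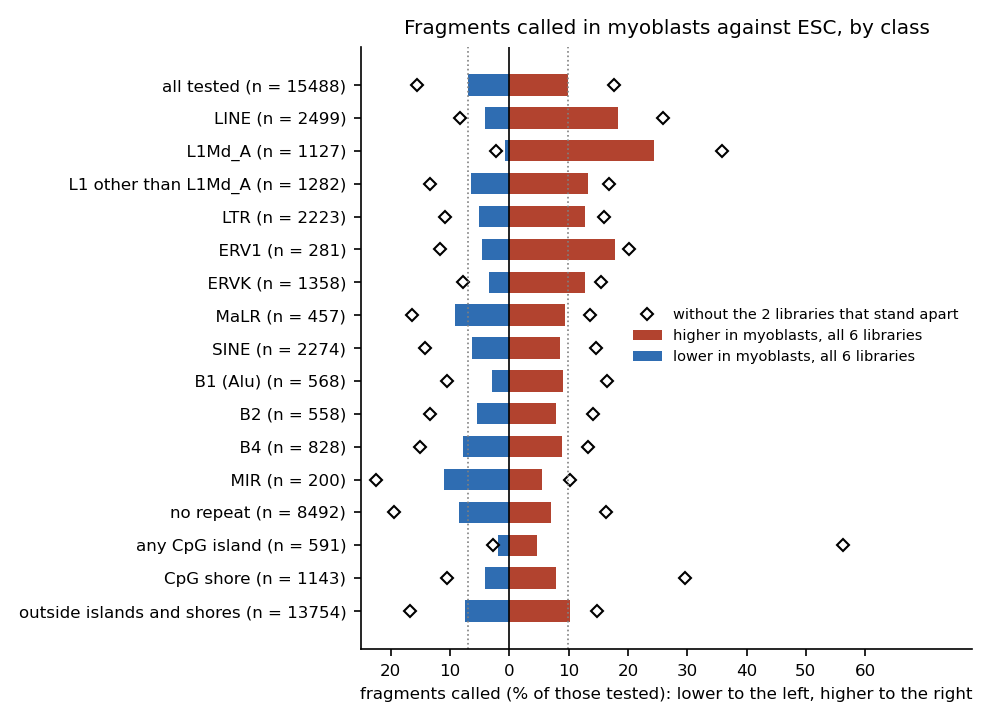
Fragments called lower (left of 0, blue) and higher (right of 0, red) in myoblasts as a percentage of those tested (x axis), for repeat and CpG classes (y axis, with the number tested). Dotted lines mark the background of 6.97% and 9.88%, and diamonds give the values without the first CGR8 library and myoblast replicate 1. L1Md_A has 24.4% higher calls, and any CpG island has 4.74% with all 6 libraries and 56.3% without those 2.

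LTR elements, the remains of retroviruses and related elements, gave 282 higher (12.7%) and 115 lower (5.17%) of 2223 tested, with a median log2 change of 0.29. The median was 0.01 with library totals and 0.07 without the 2 libraries that stood apart, where 363 were higher and 248 lower of 2290, and -0.03 without myoblast replicate 1 alone. That last fit called 316 LTR fragments higher (13.8%) and 225 lower (9.86%) of 2282, both below its background of 15.5% and 13.1%. Among their families ERV1 had 50 higher and 13 lower of 281, and ERVK, which holds the IAP elements, had 174 and 47 of 1358. MaLR, an ancient family, had 43 higher and 42 lower of 457. At equal depth, LTR fragments with at least 5 reads numbered 2162, 2335 and 2253 in myoblasts, against 2077, 2119 and 2107 in ESC. Every culture had more than every line, by a mean of 2250 ± 86.5 against 2101 ± 21.6 (SD, n = 3 each, exact permutation p = 0.1).

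The name RLTR4_MM-int, the internal part of a murine leukaemia virus-like element of the ERV1 family, had the largest ratio of the classes compared. Its reads made up 2441, 2855 and 3140 RPM in myoblasts, against 1001, 960 and 956 in ESC. The lowest culture lay well above the highest line (ratio 2.89, exact permutation p = 0.1). Only 13 of its 107 fragments were tested, and 8 of them were called higher and 0 lower. MMERVK10C-int, of the ERVK family, took 6951, 7591 and 4709 RPM in myoblasts, against 4433, 4327 and 4281 in ESC. Here myoblast replicate 3 lay just above the lines and the other cultures far above them (ratio 1.48, exact permutation p = 0.1), and 15 of 85 tested fragments were called higher and 0 lower. Insertions of such elements differ between mouse strains, and strain and cell type cannot be told apart here. IAPEz-int, the internal part of IAP elements, took 1339, 1525 and 971 RPM in myoblasts, against 1080, 1343 and 1513 in ESC, with overlap between the groups (exact permutation p = 0.9).

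SINE elements are short retrotransposons that depend on LINE enzymes. They gave 196 higher (8.62%) and 144 lower (6.33%) of 2274 tested, near the background, with a median of 0.16 that was -0.13 with library totals. The B1 family, listed as Alu in the table, had 51 higher and 16 lower of 568, and without myoblast replicate 1 it had 78 (13.4%) and 53 (9.12%) of 581, below that fit's 15.5% and 13.1%. Its reads made up 5.49, 4.86 and 4.91% in myoblasts, against 4.59, 4.04 and 4.34% in ESC, a share higher in each culture than in each line (ratio 1.18, exact permutation p = 0.1). B2 had 44 higher and 30 lower of 558, and B4 had 73 and 65 of 828. MIR, an ancient SINE family that no longer moves, went the other way with 11 higher and 22 lower of 200 tested and a median log2 change of -0.21, and 20 (9.76%) and 41 (20%) of 205 without myoblast replicate 1. MIR fragments took 11800, 12294 and 12122 RPM in myoblasts, against 15970, 15433 and 15150 in ESC. The cultures lie close to each other and all below the lines (ratio 0.778, exact permutation p = 0.1). Fragments with no repeat numbered 8492, of which 593 were called higher (6.98%) and 720 lower (8.48%), with a median of 0.01.

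**Figure D3:**
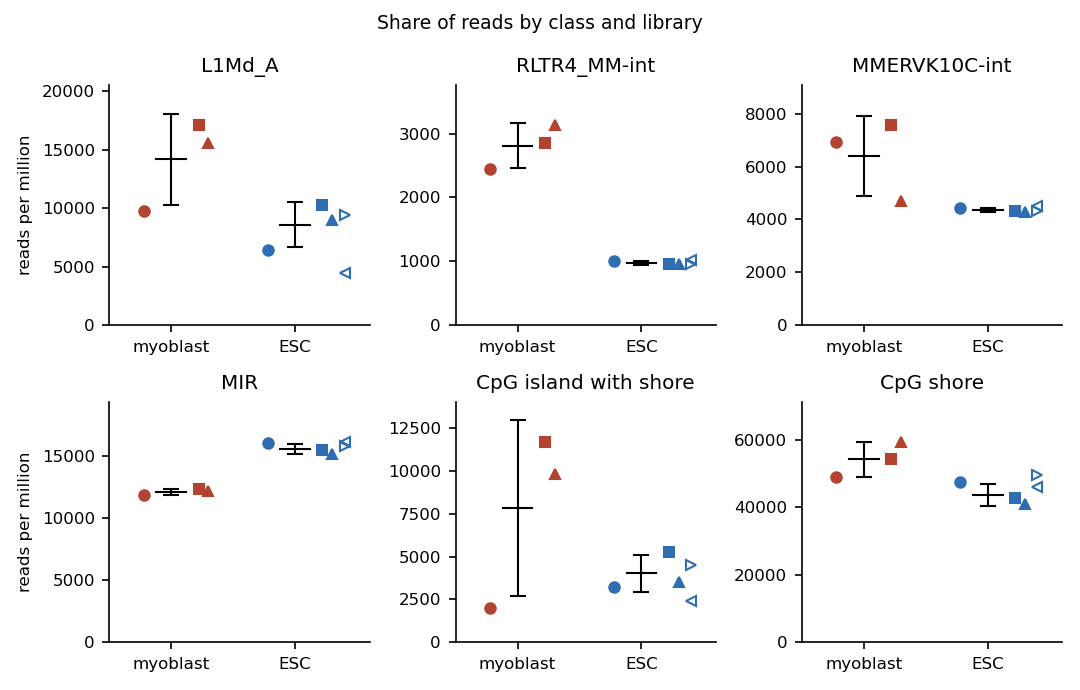
RPM, reads of 1000000 in the set (y axes, each from 0) in 6 classes, by library, for myoblasts (red, left) and ESC (blue, right), where circle, square and triangle are replicates 1, 2 and 3 (ESC: CGR8, RD1, E14Tg2), open triangles are the first (left-pointing) and second CGR8 library, and bars give mean and SD of n = 3. RLTR4_MM-int, MMERVK10C-int, MIR and the CpG shore do not overlap between the groups, while L1Md_A and the CpG island with shore do.

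In all, 47 classes of repeats, CpG density and position were compared by their share of reads, and in 17 of them (36.2%) the groups did not overlap, 11 higher in myoblasts (23.4%) and 6 lower (12.8%). With 3 against 3 libraries no p can be below 0.1, and the smallest Benjamini-Hochberg adjusted p was 0.276. None of these shares passes a threshold of 0.05.

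Few fragments of CpG islands reached the filter. Of 14732 fragments that touch an island 591 were tested, and 28 were called higher (4.74%) and 11 lower (1.86%). Their median log2 change was 1.62, and 536 of them (90.7%) had a positive change. Of the 591, 247 passed the filter in neither group alone. With no low-count filter 147 of 4833 were higher (3.04%) and 31 lower (0.641%), with a median of 0.42. Myoblast replicate 1 decided these counts. Without it 349 of 681 were called higher (51.2%) and 18 lower (2.64%) with a median of 2.00, and without the first CGR8 library as well 383 of 680 were called higher and 18 lower with a median of 1.84. The GC and length correction gave 35 higher and 14 lower with a median of 1.21. Fragments with an island and its shore took 1996, 11673 and 9787 RPM in myoblasts, against 3245, 5250 and 3545 in ESC. Replicates 2 and 3 lie above every ESC line and replicate 1 below every one, so the groups overlap (ratio 1.95, exact permutation p = 0.4). The GC-poor make-up of replicate 1 goes with its low value, and its part in the result was not tested.

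Island fragments at promoters, 343 in number, had 10 higher and 6 lower with a median of 1.69, and those elsewhere, 248 in number, had 18 and 5 with a median of 1.51. The single fragment C1ql3, within an island in an intron of this gene of a secreted complement-like protein (chromosome 2, 12931609 to 12931775), stood at 9.24, 3.46 and 14.4 CPM in myoblasts, against 0.309, 0.830 and 0.340 CPM in ESC. The lowest culture lay above the highest line, which was a condition of its choice (log2 4.18 ± 0.82, edgeR adjusted p = 0.00794). Shores, the flanks of islands, gave 91 higher (7.96%) and 47 lower (4.11%) of 1143 with a median of 0.69, and 307 (25.1%) and 96 (7.84%) of 1225 without myoblast replicate 1. The shore median was 0.28 with no low-count filter. They took 49067, 54340 and 59404 RPM in myoblasts, against 47418, 42729 and 41112 in ESC, higher in each culture than in each line (ratio 1.24, exact permutation p = 0.1). The second CGR8 library alone, at 49516, lay above replicate 1. At Card10, a scaffold protein of NF-kB signalling, a shore fragment in an intron (chromosome 15, 78631320 to 78631763) carries the SINE label RSINE1. It stood at 1030, 230.0 and 1170 CPM in myoblasts, against 1.75, 2.12 and 1.93 CPM in ESC, a log2 change of 8.70 ± 0.81 (edgeR adjusted p = 0.000368). Outside islands and shores 1411 of 13754 fragments were higher (10.3%) and 1022 lower (7.43%).

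By position, 818 of 6656 fragments between genes were called higher (12.3%) and 468 lower (7.03%). Introns held 443 higher and 412 lower of 4764, and exons 195 and 147 of 2711. Promoter fragments, which overlap the window from 2000 bp before to 500 bp after a start, had 74 higher (5.45%) and 53 lower (3.91%) of 1357, and 464 higher (31.1%) and 110 lower (7.38%) of 1490 without myoblast replicate 1. The medians of introns, exons and intergenic fragments lay at 0.08, 0.13 and 0.12, and each was below 0 with library totals, while that of promoters was 0.82, and 0.27 with no low-count filter. The 594 promoter fragments outside islands and shores gave 41 higher and 34 lower with a median of 0.08. That median was -0.28 with no low-count filter, -0.11 without myoblast replicate 1 and -0.05 without the 2 libraries that stood apart.

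Neighbouring fragments were often called alike. Fragments that share a CCCGGG site formed 2176 pairs in which both were tested. In 67 pairs both were higher, in 50 both were lower and in 14 the calls were opposite. Of the neighbours of a higher fragment 43.5% were also higher, where 7.08% of all fragments in pairs were. Of the neighbours of a lower fragment 30.2% were lower, where 7.61% of all fragments in pairs were. Without L1Md_A these shares were 42.7% and 30.3%. Neighbours have 1 site in common, so their counts are not independent.

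Of 5538 genes with a tested fragment, 656 held a higher one, 574 a lower one and 61 both. Some genes held many, and 2 of them were picked after their values had been seen. Rbpms, an RNA-binding protein (chromosome 8), had 6 of its 7 tested fragments called higher and 0 lower, with a median log2 change of 3.86. Slit3, a secreted guidance protein (chromosome 11), had 4 of 12 called lower and 0 higher, with a median of -1.66.

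The gene lists below hold 256 tested fragments, of which 28 were called higher (10.9%) and 30 lower (11.7%), where the background is 9.88% and 6.97%. A fragment was given to a gene whose body or upstream 2000 bp it overlaps, and fragments outside the set or under the filter have no value. Among genes of the pluripotent state, 12 fragments of 8 genes were tested, 5 were higher and 2 lower, with a median log2 change of 1.96. Dppa4, a nuclear factor of pluripotent and germ cells, had both of its tested promoter fragments called higher, and they share a site. The longer one (chromosome 16, 48284242 to 48284769) carries the SINE label B1_Mur3. It stood at 334, 231 and 231 CPM in myoblasts, against 2.16, 1.57 and 0.453 CPM in ESC. Its neighbour of 84 bp (48284158 to 48284241) had 59 reads over the myoblasts and 2 over the ESC, higher 41.9 times (exact interval 11.1 to 354). The cultures lay far above every line in the pair. The call held on leaving out each library in turn for both, with edgeR adjusted p from 3.76e-05 to 0.00286 for the longer and from 0.00248 to 0.0318 for the shorter.

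Nr5a2, a nuclear receptor of pluripotent and endodermal cells, had 1 intron fragment in each direction. The higher one (chromosome 1, 138795657 to 138797308) stood at 11.9, 10.2 and 6.97 CPM in myoblasts, against 0.154, 0.0922 and 0.340 CPM in ESC (log2 5.61 ± 0.76, edgeR adjusted p = 0.00112). The lower one, 138808019 to 138808996, stood at 22.3, 26.8 and 22.3 CPM in myoblasts, against 76.7, 60.8 and 55.7 CPM in ESC (log2 -1.44 ± 0.39). Neither overlaps between groups, but the lower call was lost without any single ESC line (edgeR adjusted p from 0.0954 to 0.115). Esrrb, a nuclear receptor that sustains ESC self-renewal, had 3 fragments tested, and only an intron fragment was called. It was at 9.24, 15.1 and 30.5 CPM in myoblasts, against 4.42, 4.70 and 3.96 CPM in ESC (chromosome 12, 87744069 to 87745610). The Esrrb call was lost without myoblast replicate 2 or 3 or any ESC line (up to adjusted p = 0.167), and so was that of the Tbx3 promoter shore at 1.96 ± 0.53 (up to 0.146). Jarid2, a partner of the Polycomb complex PRC2, had an intron fragment at 12.3, 125 and 143 CPM in myoblasts, against 917, 525 and 672 CPM in ESC (chromosome 13, 45003356 to 45003695), lost without myoblast replicate 2 or 3, CGR8 or E14Tg2 (edgeR adjusted p up to 0.0795). Nanog, Pou5f1, Zfp42, Tdgf1 and Dppa2 had no fragment in the set.

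Of myogenic regulators, 20 fragments of 12 genes were tested, with 2 higher and 2 lower. No fragment of Myod1 or Myog was tested, and Myf6 has none in the set. An exon fragment of Myf5, a transcription factor that specifies muscle precursors (chromosome 10, 106921116 to 106921344), stood at 1.06, 9.01 and 7.59 CPM in myoblasts, against 75, 47.8 and 49.2 CPM in ESC. It was lower in every culture (log2 -3.28 ± 0.73, edgeR adjusted p = 0.0154), and its call was lost without myoblast replicate 3 (edgeR adjusted p = 0.0537) and with all 9 groups in 1 fit (0.129). Cdh15, the M-cadherin of satellite cells, had an island fragment at 0, 0.297 and 0.310 CPM in myoblasts, against 1.54, 6.36 and 14.3 CPM in ESC (chromosome 8, 125389045 to 125389275). That call was lost without myoblast replicate 3 (0.07) and without E14Tg2 (0.0593). At 64.1% GC, the Cdh15 fragment had 1 read in the first CGR8 library and 29 in the second. Its call was also lost with these libraries apart, and held without the first and myoblast replicate 1 (edgeR adjusted p = 0.00439). For Pax7, which maintains satellite cells, 6 fragments were tested and only an exon fragment was called. It stood at 134, 244 and 69.0 CPM in myoblasts, against 57.8, 30.3 and 34.8 CPM in ESC (chromosome 4, 139294972 to 139295493). A shore fragment of Mef2c, a transcription factor of muscle genes, stood at 15.3, 19 and 30.8 CPM in myoblasts, against 8.08, 6.36 and 4.53 CPM in ESC. The last pair of calls rest close to the threshold (edgeR adjusted p = 0.0476 and 0.0485), and were lost without myoblast replicate 2 or any ESC line, and for Mef2c also without myoblast replicate 3 (up to 0.178 for Pax7 and 0.204 for Mef2c). Pax3, a paired-box factor of embryonic muscle progenitors, had 3 fragments tested and none called. That of smallest p, a promoter island fragment, stood at 3.70, 28.6 and 10.8 CPM in myoblasts, against 2.26, 5.53 and 2.95 CPM in ESC, which overlap (edgeR adjusted p = 0.114, and 0.023 without myoblast replicate 1). The exon fragment of Des, the muscle intermediate filament desmin, overlapped as well (edgeR adjusted p = 0.263).

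Of the contractile and calcium-handling genes, 28 fragments of 19 genes were tested, with 4 higher and 3 lower. Ryr1, the calcium release channel of skeletal muscle, had an exon fragment at 36.3, 62.1 and 308 CPM in myoblasts, against 0.206, 0 and 0 CPM in ESC (chromosome 7, 29889340 to 29889751). It was near absent from every line and present in every culture, and its call held without each library in turn. A second Ryr1 fragment, in an intron, was at 222, 121 and 114 CPM in myoblasts, against 43.6, 27.8 and 44.4 CPM in ESC, a call lost without RD1 or E14Tg2. Pygm, muscle glycogen phosphorylase, was at 282, 115 and 215 CPM in myoblasts, against 49.5, 35.7 and 55.6 CPM in ESC, and its call was also lost without RD1 or E14Tg2 (edgeR adjusted p up to 0.0735). Lower calls of Myh7, the slow myosin heavy chain, and Mybpc1, a myosin-binding protein, were lost without myoblast replicate 3 or any ESC line (edgeR adjusted p up to 0.139 and 0.108).

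The enzymes that write and remove methylation had 10 fragments of 6 genes tested, 2 higher and 1 lower. An intron fragment of Dnmt3a, a de novo DNA methyltransferase (chromosome 12, 3819797 to 3819994), stood at 32.5, 14.6 and 37.5 CPM in myoblasts, against 0.257, 0.0922 and 0 CPM in ESC (log2 7.56 ± 0.91, edgeR adjusted p = 0.000697). An intron fragment of Tet3, which oxidises methylcytosine (chromosome 6, 83371074 to 83371977), stood at 52, 52.5 and 92.8 CPM in myoblasts, against 0.411, 0 and 0.113 CPM in ESC. Both were near absent in every ESC line, and both calls held without each library in turn. The Tet3 promoter shore (83389847 to 83390255) went the other way, at 0.264, 1.19 and 2.32 CPM in myoblasts, against 5.19, 23.2 and 32.5 CPM in ESC, and was lost without myoblast replicate 2 or E14Tg2 (edgeR adjusted p up to 0.0628). At 60.1% GC, this shore had 3 reads in the first CGR8 library and 98 in the second. Its call was also lost with these libraries apart or the first alone. It held without the first and myoblast replicate 1 (edgeR adjusted p = 0.00301). A promoter shore of Dnmt3b, the other de novo enzyme, and an intron fragment of Tet1 were not called (edgeR adjusted p = 0.112 and 0.14), and the Dnmt3b fragment was called without myoblast replicate 1 (0.025).

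Imprinted genes had 17 fragments of 11 genes tested, 0 higher and 4 lower. Trappc9, a vesicle tethering factor imprinted in brain, had an intron fragment at 7.79, 20.3 and 13.8 CPM in myoblasts, against 115, 95.6 and 92.0 CPM in ESC (chromosome 15, 72437709 to 72438499). Kcnq1, a potassium channel gene in an imprinted domain, had 2 intron fragments called lower. The call at 150529430 to 150529823 of chromosome 7 held without each library in turn, at 11, 32.2 and 55.0 CPM in myoblasts, against 268, 200 and 198 CPM in ESC. The other Kcnq1 fragment and the exon fragment of Ppp1r9a, a scaffold protein of neurons, were lost without myoblast replicate 3 or any ESC line (edgeR adjusted p up to 0.117 and 0.125). With no fragment of Peg3 in the set and none of H19 or Mest tested, these imprinted genes have no value. Germ line genes had 25 fragments tested, 1 higher in Piwil1, a PIWI protein of the testis, and 1 lower in Dmrtb1, a factor of spermatogenesis. Piwil1 was at 19.9, 18.6 and 14.6 CPM in myoblasts, against 0.566, 0.0922 and 0.227 CPM in ESC, clear of overlap (log2 5.75 ± 0.76, edgeR adjusted p = 0.001). The Dmrtb1 call was lost without myoblast replicate 3 or any ESC line (up to 0.119).

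HOX genes, which set position along the body axis, had 15 fragments tested, 3 higher and 1 lower. A shore fragment in an exon of Hoxc5 (chromosome 15, 102846100 to 102846466) was at 549, 174 and 308 CPM in myoblasts, against 6.69, 14 and 5.66 CPM in ESC. A promoter fragment of Hoxa2 (chromosome 6, 52114462 to 52115046) was at 64.0, 25.2 and 45.6 CPM in myoblasts, against 3.14, 5.16 and 2.04 CPM in ESC. In both the lowest culture exceeded the highest line, and both calls held without each library in turn. The Hoxd9 call (log2 3.04 ± 0.68) and the lower call at the shared promoter region of Hoxd3 and Hoxd4 (-2.01 ± 0.59) were lost on leaving out several single libraries (edgeR adjusted p up to 0.09 and 0.146). For Hoxd9 these were myoblast replicates 2 and 3, CGR8 and E14Tg2, and for Hoxd3 myoblast replicate 3 and each ESC line.

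Genes of epithelia had 10 fragments tested, 3 higher and 2 lower. Cdh1, which encodes E-cadherin, a cell adhesion protein of epithelia and ESC, held 2 of the higher fragments and 1 of the lower. The intron fragment at 109157668 to 109158644 of chromosome 8 carries the SINE label PB1D10. It had 1390 reads over the myoblasts and 3 over the ESC, higher 658 times (exact interval 225 to 3190). A second intron fragment (109135061 to 109135935) was at 134, 66.0 and 124 CPM in myoblasts, against 5.81, 7.47 and 6.12 CPM in ESC (log2 4.06 ± 0.48, edgeR adjusted p = 0.000646). The lower Cdh1 fragment, further along the gene in an exon, was at 3.83, 11.2 and 6.82 CPM in myoblasts, against 28.9, 33.9 and 43.0 CPM in ESC, and was lost without myoblast replicate 3, RD1 or E14Tg2 (up to 0.0826). Krt8, a keratin of simple epithelia, was higher at its promoter, at 131, 77.6 and 110 CPM in myoblasts, against 8.80, 11.2 and 7.36 CPM in ESC (chromosome 15, 101834619 to 101834910). The Krt8 call and the higher Cdh1 calls held without each library in turn, and the lower call of Hnf4a, a liver and gut factor, was lost without CGR8 or E14Tg2 (up to 0.0725).

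**Figure D4:**
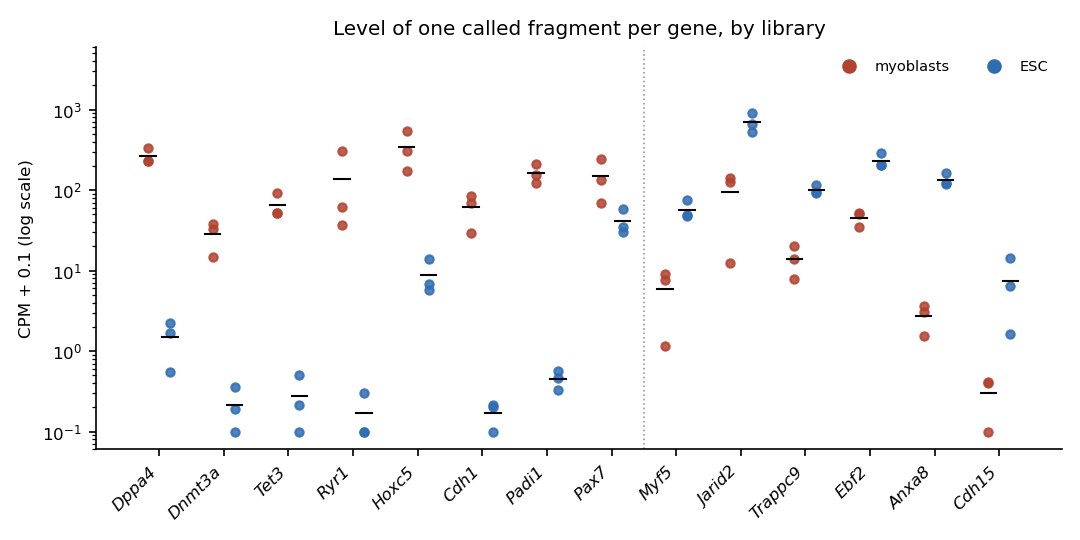
Level of 1 called fragment per gene in each library (y axis, CPM + 0.1 on a log scale; x axis, genes), with myoblasts in red to the left and ESC in blue to the right of each gene and a bar at the mean of n = 3. Left of the dotted line are fragments called higher in myoblasts, such as Ryr1 with 36.3 to 308 CPM, and right of it fragments called lower, such as Anxa8 with 1.45 to 3.56 CPM.

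The other lists hold markers of cells that muscle preparations could contain and of other lineages. Adipocyte genes had 24 fragments of 8 genes tested, 0 higher and 6 lower, with a median log2 change of -1.32. The fragment of Ebf2, a factor of brown fat precursors, at 67898201 to 67898586 of chromosome 14, was at 34.6, 50.3 and 51.4 CPM in myoblasts, against 286, 206 and 203 CPM in ESC. Plin1, a lipid droplet protein, was at 5.81, 14.8 and 17 CPM in myoblasts, against 75.2, 62.7 and 69.4 CPM in ESC. Prdm16, a zinc-finger factor of brown fat and other tissues, had 3 lower fragments, of which the one at 153720913 to 153721179 of chromosome 4 was at 26.0, 60.3 and 75.6 CPM in myoblasts, against 366, 187 and 218 CPM in ESC. These fragments of the 3 genes were lower in every culture than in every line. The calls of that Ebf2 fragment and of Plin1 held without each library in turn, and those of Prdm16 did not, being lost without RD1 or E14Tg2, without CGR8 alone, or without myoblast replicate 2 or any line (edgeR adjusted p up to 0.0791, 0.0582 and 0.0988). The second Ebf2 fragment was lost without myoblast replicate 3 or any line (up to 0.092).

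Neural genes had 27 fragments tested with 3 higher and 2 lower, blood genes 19 with 1 and 2, endothelial genes 27 with 3 and 1, fibroblast genes 16 with 1 and 2, and Schwann cell genes 7 with 0 and 1. Fragments of Lhx2, a forebrain factor, and Nkx2-2, a factor of ventral neural tube, were higher. Lhx2 was at 94.8, 186 and 148 CPM in myoblasts, against 12.5, 22 and 11.4 CPM in ESC. Nkx2-2 was at 35.1, 29.3 and 27.7 CPM in myoblasts, against 1.80, 5.81 and 1.59 CPM in ESC. Eng, whose product endoglin is a TGF-beta co-receptor of blood vessels, was at its promoter at 255, 223 and 111 CPM in myoblasts, against 38.4, 14.2 and 9.18 CPM in ESC. Cultures and lines did not overlap in these 3 fragments, and their calls held without each library in turn. The fragment of Itgam, the myeloid integrin CD11b, carries the label RLTR10-int and was at 145, 87.7 and 120 CPM in myoblasts, against 0.772, 0.0922 and 0.113 CPM in ESC. Both higher fragments of Erg, an endothelial factor, are 156-bp L1Md_A units in its introns, at 14.3, 21.6 and 25.9 CPM in myoblasts, against 5.71, 3.87 and 2.38 CPM in ESC for that at 95730566 to 95730721 of chromosome 16. The Itgam call held without each library in turn. The Erg calls were both lost without myoblast replicate 3 or RD1, that at 95730566 also without myoblast replicate 2 or E14Tg2, and the other also without CGR8 (edgeR adjusted p up to 0.106), and every other called fragment of these lists was lost without at least 1 library.

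**Figure D5:**
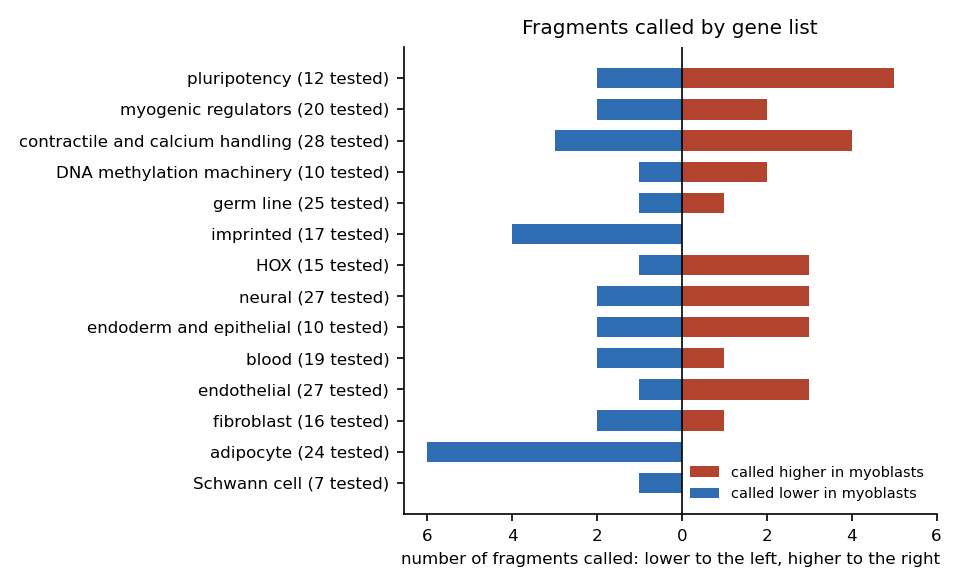
Number of fragments called lower (left of 0, blue) and higher (right of 0, red) in myoblasts (x axis) for 14 gene lists (y axis, with the number tested). Pluripotency genes have 5 higher and 2 lower, and adipocyte genes 0 higher and 6 lower.

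Other calls with large changes lay outside these lists. Padi1, a protein deiminase of epidermis, had a promoter fragment at 212, 123 and 153 CPM in myoblasts, against 0.360, 0.461 and 0.227 CPM in ESC (chromosome 4, 140400552 to 140401465; log2 8.80 ± 0.60, edgeR adjusted p = 0.000343). A fragment labelled LINE in an intron of Dock10, a guanine nucleotide exchange factor, stood at 131, 109 and 91.3 CPM in myoblasts, against 0.154, 0 and 0.113 CPM in ESC (chromosome 1, 80690871 to 80691778). An LTR fragment at the promoter of Oasl2, an interferon-induced gene, was at 249, 96.5 and 164 CPM in myoblasts, against 0.463, 0.369 and 0.113 CPM in ESC. The ESC lines were near empty in each of these, and all cultures were well filled. These fragments were chosen for a small p and groups that do not overlap, so that separation is not a result.

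In the other direction, the promoter of Anxa8, an annexin (chromosome 14, 34897074 to 34899044), was at 1.45, 3.56 and 2.94 CPM in myoblasts, against 164, 120.0 and 121 CPM in ESC (log2 -5.66 ± 0.54, edgeR adjusted p = 0.000385). It shares a site with the unique intergenic fragment printed above, which was at 0.132, 0.594 and 0.155 CPM in myoblasts, against 42.0, 29.5 and 21.1 CPM in ESC. The promoter fragment of Znrf4, a ubiquitin ligase (chromosome 17, 56650012 to 56651706), had 0 reads in all 3 myoblast libraries and 2631, 1044 and 807 reads in ESC. Set against a floor of 3 reads over the myoblasts it was at least 921-fold lower with TMM-adjusted totals and at least 1050-fold lower by library totals. An intron fragment of Specc1 with the SINE label B3A (chromosome 11, 61819999 to 61821806) had 1 read over the myoblasts and 9857 over the ESC, lower 6940 times (exact interval 1250 to 274000).

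Reads of other C57BL/6J material were set beside these calls, since strain and cell type change together. Muscle tissue and fresh muscle precursors of uninjured and of injured muscle gave 3 C57BL/6J libraries that were never cultured. All 1530 fragments called higher had at least 5 reads in 1 or more of the 3, and 1514 had them in all 3. Fragments called higher already have reads in the C57BL/6J myoblasts, so these counts cannot separate strain from cell type. The same share over all tested fragments is not given here. Of the 1080 called lower, 1025 (94.9%) had at least 5 reads in 1 or more and 924 in all 3. Of the 57 lower fragments with at most 3 reads over the myoblasts, 28 (49.1%) had 5 reads in 1 or more and 1 had them in all 3. The other 1023 lower fragments already have more than 3 reads over the C57BL/6J myoblasts, and 997 of them had at least 5 reads in 1 or more. The counts of lower fragments thus cannot separate strain from cell type either. The Znrf4 fragment had 3 reads in C57BL/6J muscle, 18 in fresh cells of uninjured and 3 of injured muscle, and 4 and 0 in muscle of mixed 129Sv/C57BL/6J background.

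The authors' deposited table of this comparison, with 26515 fragments of the set, lists 2536 higher and 3213 lower at an adjusted p under 0.05 with pooled dispersion. Its column per condition lists 3708 higher and 4005 lower and is not used below. Only 15470 of its fragments were tested here. Shares of the authors' calls below are of all their calls, including those on fragments not tested here. Of the 1527 fragments called higher here that it holds, 1448 are higher in the authors' deposited table, which is 94.6% of those here and 57.1% of theirs. Of the 1080 called lower here 1007 are lower there, or 93.2% of those here and 31.3% of theirs, and 0 have the opposite direction in the authors' deposited table.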

How the data were processed

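The authors deposited raw read counts per fragment and library. Sequencing used an Illumina GA2, per the labels' protocols. Bowtie 0.11.3, DESeq (no version) and the build mm9 are listed in the submitters' processing notes, and how reads with several matches were treated is not given in the sources used here. The authors' deposited comparison table holds p-values and log2 fold changes, per the file headers, with the CGR8 libraries counted separately.

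Here the CGR8 libraries were summed and the counts fitted in edgeR 4.0.16 by quasi-likelihood (TMM scaling; filterByExpr, minimum count 10, or about 1.12 CPM), 3 against 3 libraries, no covariate. P-values are 2-sided and were adjusted by Benjamini-Hochberg across the 15488 fragments, with a threshold of 0.05. Shares of reads were compared by exact permutation. Repeat and CpG classes are those of the deposited tables, and genes are from GENCODE M1. Alternatives included DESeq2 1.42.0, other scalings and filters, and each library left out.

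Named by rule were the fragment of smallest p of each of 28 genes, of each repeat class, CpG class and gene list by direction, and the 5 largest folds by direction among single-copy promoter fragments. Those of the repeat and CpG classes and the largest folds also had to be called, with groups that do not overlap. For the largest folds the mean also had to reach the median of the fragments tested. A result of the gene lists that enters the counts is not reported here by itself. Other list fragments and genes with many calls were named after their values had been seen. The members and lists were chosen with earlier results of these data known. Work ran in R 4.3.3 (limma 3.58.1, data.table) and Python 3.11.15 (numpy 2.4.6, pandas 2.3.3, scipy 1.17.1, pysam 0.24.0, matplotlib 3.10.9).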

Additional observations from a re-analysis of the deposited data

How the results depend on the processing

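Of 471 recomputed summary values, 380 kept within 1 SD between replicates (for counts, within 1.5 times) and 91 moved. Higher calls (1530) ranged from 1119 to 2523 on leaving out 1 library and numbered 2883 without the first CGR8 library and myoblast replicate 1, an alternative added after the data were seen, as was the GC and length correction. Lower calls (1080) ranged from 447 to 2131 and numbered 2553 without those 2 libraries, 1981 with DESeq2, 2055 with the GC and length correction, 2530 with that and the replicate block, 425 with all 9 groups in 1 fit, 660 with the first CGR8 library only and 2336 with no low-count filter. Fragments of the gene lists called higher (28) ranged from 18 to 52 and numbered 56 without the 2 libraries. Those called lower (30) ranged from 8 to 51 and numbered 61 without the 2 libraries, 8 with all groups, 14 with the first CGR8 library, 55 with no filter and 51 with block and correction. Medians of log2 change moved as follows. With library totals they were 0.20 for LINE, 0.01 for LTR, -0.13 for SINE, -0.28 for no repeat, -0.22 outside islands, -0.18 for exons, -0.15 between genes and -0.22 for introns. With the GC and length correction they were -0.02 for LINE, 0.02 for SINE, -0.10 outside islands, -0.14 between genes and -0.08 for introns. With block and correction they were -0.08 for LINE, 0.06 for LTR, -0.09 for SINE, -0.21 outside islands, -0.22 between genes and -0.20 for introns. With no filter they were -0.09 for SINE, -0.25 for no repeat, -0.13 outside islands, -0.29 for exons, -0.00 between genes and -0.10 for introns. Without the 2 libraries they were 0.07 for LTR, -0.08 for SINE, -0.12 outside islands, -0.14 for exons, -0.05 between genes and -0.12 for introns. With all groups they were -0.03 outside islands, -0.08 for exons, 0.07 between genes and -0.02 for introns. With the block alone they were -0.00 outside islands, 0.06 between genes and -0.02 for introns. At 200 bp or longer they were 0.13 for LINE and 0.07 between genes, where the second CGR8 library gave 0.17. On leaving out 1 library they ranged from 0.21 to 0.68 for LINE, -0.03 to 0.34 for LTR, -0.18 to 0.26 for SINE, -0.26 to 0.05 for no repeat, -0.20 to 0.12 outside islands, -0.22 to 0.16 for exons, -0.12 to 0.20 between genes and -0.21 to 0.16 for introns. The cause was not tested. That SD is wide for medians of islands (1.5), islands with shores (1.42), promoters (0.958) and shores (0.761), so staying within it says little. With no filter these medians were 0.75, 0.27, 0.27 and 0.28, against 1.90, 1.56, 0.82 and 0.69 with it, and the shore median was 0.24 without myoblast replicate 2. Likewise the ratio of read shares ranged from 1.70 to 2.69 for islands, 1.47 to 2.67 for islands with shores and 1.47 to 1.90 for L1Md_A, and that of detected fragments from 1.01 to 1.65 and from 0.796 to 1.17 for both island classes. Of 55 named fragments under 1148 settings, 1040 values kept their side of the threshold, 101 lost the call, 7 gained it and none reversed. With all 9 groups in 1 fit the calls of Esrrb, Myf5, Pax7, Mef2c, Cdh15, Jarid2, the Tet3 promoter shore, Dmrtb1 and Hoxd3 were lost. The replicate numbers name different cultures and lines, so by design they do not pair the samples. Same-numbered libraries correlated at 0.395, 0.164 and 0.098 in their deviations, and differently numbered ones at -0.351 to 0.263. A replicate block gave 1542 higher and 1132 lower.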
